A study of Mus musculus with 9 samples.

Results

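The 10 genes described here store, release, take up and export iron. They are the ferritin subunits Fth1 and Ftl1, the ferritin receptor Ncoa4, the heme-degrading enzyme Hmox1, the iron carrier Trf and its receptor Tfrc, the metal transporters Slc11a1 and Slc11a2, the exporter Slc40a1 and the ferroxidase Cp. They were taken by symbol from the deposited table, where they hold 75 of 105129 transcript rows and make up 10 of 33641 genes once the rows of a gene are summed. All 10 passed the filter on low counts and were tested among 17398 genes.

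The libraries came from a dissected piece of mouse brain with thalamus, hypothalamus and midbrain, 1 piece from each of 9 untreated mice aged 7.5 months. The mice were of 3 genotypes with 3 mice each: wild type (WT), PG9V and PG9VN, both mutant lines serving as models of Gaucher disease of the neuronopathic kind, in which glycolipid builds up in lysosomes of the brain. The labels name the genotypes without their alleles. What is generally known of the lines, beyond the labels, is that both are without progranulin (Grn) throughout the body and carry a point mutation (9V) in the gene of lysosomal glucocerebrosidase, on both copies in PG9V and over a null copy in PG9VN. The labels give no strain, sex, litter or batch, so a strain difference between mutant and WT mice cannot be told apart from the genotype.

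Iron inside cells is kept in ferritin, a shell of heavy chains that oxidize iron and light chains that help to mineralize it. Ferritin is broken down in lysosomes when Ncoa4 delivers it there, heme oxygenase frees iron from heme, transferrin and its receptor bring iron in, and ferroportin (Slc40a1) with a ferroxidase lets it out. In the brain, oligodendrocytes and microglia are rich in ferritin, transferrin is made by oligodendrocytes and the choroid plexus, and Slc11a1 is a transporter of the phagocyte lysosome.

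Much of this system is set after transcription by iron regulatory proteins, which bind a hairpin in the mRNA, the iron-responsive element. In the 5′ UTR such a hairpin holds back translation, and in the 3′ UTR of Tfrc it protects the mRNA from decay. The elements are shown because they set apart Tfrc, whose mRNA level can report this control, from Fth1, Ftl1 and Slc40a1, whose translation it sets. Slc11a2 holds a 3′ UTR element in part of its transcripts and is placed in neither group, and the other members hold none. The elements were found in GENCODE transcripts of build GRCm38 as a C, 5 bases, the loop CAGTGN and 5 bases that pair with the first 5, with G-U pairs allowed and at most 1 unpaired base on the 3′ side, on the transcript strand alone. Capitals mark the bulged C and the 6-base loop.
Fth1, 5′ UTR, chr19:9982732-9982760, plus strand: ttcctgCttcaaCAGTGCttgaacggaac
Ftl1, 5′ UTR, chr7:45459779-45459807, minus strand: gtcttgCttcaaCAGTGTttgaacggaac
Slc40a1, 5′ UTR, chr1:45925465-45925493, minus strand: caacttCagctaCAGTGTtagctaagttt
Tfrc, 3′ UTR, chr16:32631219-32631247, plus strand: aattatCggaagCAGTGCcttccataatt
Tfrc, 3′ UTR, chr16:32631598-32631626, plus strand: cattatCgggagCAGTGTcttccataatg
Tfrc, 3′ UTR, chr16:32631663-32631691, plus strand: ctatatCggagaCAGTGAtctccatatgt
Tfrc, 3′ UTR, chr16:32631710-32631738, plus strand: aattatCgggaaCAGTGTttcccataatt
Slc11a2, 3′ UTR, chr15:100395152-100395181, minus strand: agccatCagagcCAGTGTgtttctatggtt

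The elements of Fth1 and Ftl1 matched each other at 26 of 29 bases, and that of Slc40a1 matched each of them at 13 of 29. The Slc11a2 element has the 1 unpaired base and lies in transcript Slc11a2-205 but not in Slc11a2-201. No transcript of Ncoa4, Hmox1, Slc11a1, Trf or Cp held a match. The same rule matched 3.4% of 33365 genes (1.13% when every base had to pair), so a match is a description of letters and not a shown binding site.

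Estimated counts totalled between 27151215 and 35350177 per library. Grn lay between 46.5 and 55.5 depth-normalized counts (CPM) in WT and between 2.59 and 4.72 in the 6 mutant libraries. PG9VN replicate 2 stood apart, with summed hypothalamic neuropeptides at 5.05 CPM against 146 to 510 elsewhere, and summed cortex and hippocampus markers at 1699 CPM against 365 to 672. PG9V replicate 3 carried the cerebellar gene Gabra6 at 36.3 CPM, against at most 0.817 elsewhere. WT replicate 1 and PG9V replicate 2 nearly lacked the Y-linked gene Ddx3y, with 13 and 8 counts against 1173 to 2466. The thalamus markers were present in every library but their sum was 671 to 807 CPM in WT and 214 to 407 in PG9VN. Values are CPM scaled for library composition, fold changes are on the log2 scale with their standard error (SE), and p-values come from edgeR's quasi-likelihood test adjusted over all genes tested.

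In PG9VN against WT, 6 of the 10 iron genes rose and 0 fell, where 11.5% of all genes tested rose and 7.22% fell. The 6 were Hmox1, Ftl1, Slc11a1, Fth1, Cp and Slc40a1. Trf, Tfrc, Slc11a2 and Ncoa4 did not pass edgeR's test, and Ncoa4 was the 1 gene lower at an unadjusted p under 0.05. In PG9V against WT, Hmox1 and Slc11a1 rose and 0 fell, 2 of 10 where 1.62% of all genes rose and 0.149% fell. In PG9VN against PG9V 3 of 10 rose (Hmox1, Ftl1 and Slc11a1) and 0 fell, where 2.72% of all genes rose and 0.667% fell. Libraries of the genotypes compared did not overlap for 7, 8 and 3 of the 10 genes in the 3 comparisons in that order, against 37.5%, 29.7% and 21.2% of all genes tested. The median log2 fold change of the 10 genes was 0.69, 0.43 and 0.37 in the 3 comparisons, beside 0.02, 0.01 and 0.01 over all genes tested. The first 2 comparisons share the WT libraries, and PG9VN against PG9V shares its libraries with both of them. None of the 3 is therefore separate evidence of another. The calls between the mutant lines were the least stable: 0 of the 3 held without PG9V replicate 1, without PG9V replicate 3 or without PG9VN replicate 3. Without both libraries that nearly lacked Ddx3y, 3 genes rose in PG9VN against WT (Hmox1, Ftl1 and Slc11a1).

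**Figure D1:**
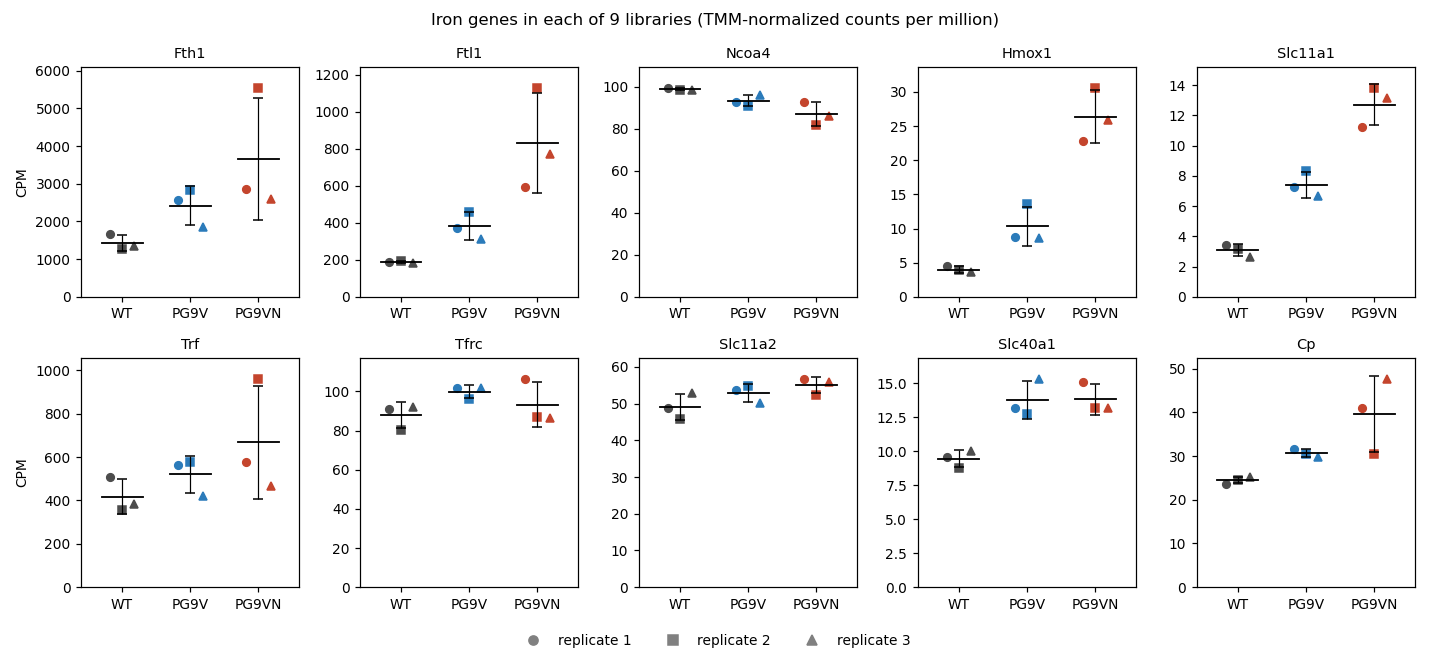
Level of each iron gene in CPM (y axis, from 0, scaled per gene) in the 9 libraries by genotype (x axis), with marker shape for the replicate, a bar for the mean and whiskers for 1 SD over 3 libraries. Hmox1, Slc11a1 and Ftl1 climb from WT to PG9V to PG9VN with no overlap, while Tfrc and Slc11a2 stay near their WT level.

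Ferritin mRNA was the most abundant of the system and rose in both chains, the light chain by more. Ftl1, the light chain, was at 187, 196 and 182 CPM in the WT libraries, at 369, 460 and 310 in PG9V, and at 593, 1126 and 772 in PG9VN. The 3 genotypes did not overlap, and the WT libraries were far tighter (SD 6.92) than those of PG9VN (SD 272). Ftl1 rose 4.41-fold in PG9VN against WT (log2 fold change 2.14 ± 0.23, adjusted p = 0.000381) and 2.19-fold in PG9VN against PG9V (1.13 ± 0.23, adjusted p = 0.0312), a call also lost without any 1 of the WT libraries (adjusted p = 0.0516 to 0.0579). Its mean was 2.02 times higher in PG9V than in WT (1.01 ± 0.23, adjusted p = 0.066), with an adjusted p of 0.000672 by DESeq2 and of 0.000672 to 0.582 over all alternatives.

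Fth1, the heavy chain with the ferroxidase centre, was at 1657, 1271 and 1350 CPM in WT, at 2565, 2844 and 1851 in PG9V, and at 2866, 5536 and 2586 in PG9VN. PG9VN replicate 2 was far above every other library, and PG9VN replicates 1 and 3 lay within or just above the PG9V range. Fth1 rose 2.57-fold in PG9VN against WT (1.36 ± 0.29, adjusted p = 0.0132). Without PG9VN replicate 2 the log2 fold change was 0.93 (adjusted p = 0.00552), and without WT replicate 2 or 3 the call was lost (adjusted p = 0.0519 and 0.0566, within 2.37e-05 to 0.0566 over all alternatives). For PG9V against WT the value was 0.76 ± 0.29 (adjusted p = 0.28), with no overlap of libraries, and 0.75 (adjusted p = 0.0343, within 0.00651 to 0.805 over all alternatives) when PG9VN replicate 2 was left out of the shared spread. Between the mutant lines the libraries overlapped (0.60 ± 0.29, adjusted p = 0.363), and the value fell to 0.18 without PG9VN replicate 2.

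As a share of all counts, Fth1 took 0.129% to 0.167% in WT and 0.269% to 0.507% in PG9VN, and Ftl1 took 0.0185% to 0.0198% and 0.0607% to 0.103%. The ratio of Fth1 to Ftl1 counts was 8.85, 6.49 and 7.41 in the WT libraries, 6.95, 6.18 and 5.98 in PG9V, and 4.84, 4.92 and 3.35 in PG9VN. Every PG9VN library was below every other library, while PG9V and WT overlapped. The mean log2 ratio was 2.11 ± 0.31 in PG9VN and 2.91 ± 0.22 in WT (SD, n = 3 each), a difference of -0.81 with an exact two-sided permutation p of 0.1, the smallest that 3 against 3 allows. The same exact test gave p = 0.1 for PG9VN against PG9V, whose mean was 2.67, and p = 0.2 for PG9V against WT. Processed copies of the ferritin genes were at most 1.51 CPM in any library, and adding them to their parent gene left Fth1 and Ftl1 on the same side of the threshold in all 3 comparisons.

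**Figure D2:**
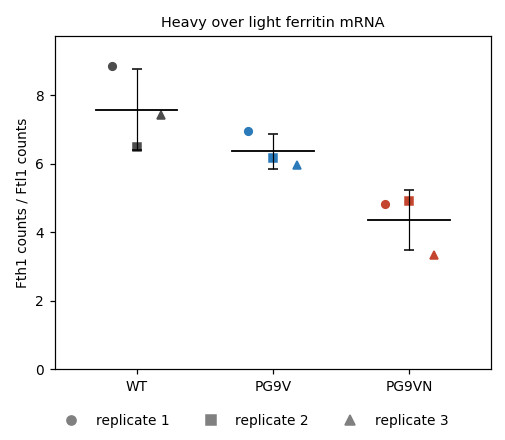
Fth1 counts divided by Ftl1 counts (y axis, from 0) in each library by genotype (x axis), with bars for the mean and whiskers for 1 SD over 3 libraries. The PG9VN libraries lie at 3.35 to 4.92, below the lowest WT (6.49) and PG9V (5.98) libraries.

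Ncoa4, the receptor that carries ferritin to the lysosome, was the member nearest to falling. It was at 99.3, 98.6 and 98.5 CPM in WT, at 92.9, 90.9 and 96.2 in PG9V, and at 92.9, 81.8 and 86.0 in PG9VN. Both mutant groups lay below all WT libraries without passing the test in PG9VN (-0.18 ± 0.07, adjusted p = 0.104) or PG9V (-0.08 ± 0.07, adjusted p = 0.669). DESeq2 called it lower in PG9VN (adjusted p = 0.0449), the lowest of 0.0449 to 0.302 over all alternatives. Of 15 tested genes that act with it in autophagy of ferritin, 3 rose and 3 fell in PG9VN against WT, beside 11.5% and 7.22% of all genes. The lysosomal membrane proteins Lamp1 and Lamp2 rose. Lamp1 went from 345 ± 17.3 CPM in WT to 593 ± 56.5 in PG9VN (SD, n = 3; log2 fold change 0.78 ± 0.11, adjusted p = 0.00133), and Lamp2 from 80.0 ± 9.45 to 135 ± 5.01 (0.75 ± 0.10, adjusted p = 0.000868). The autophagy initiation protein Rb1cc1 fell from 109 ± 4.42 to 75.4 ± 7.45 CPM (-0.53 ± 0.09, adjusted p = 0.00428).

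Hmox1, the inducible enzyme that opens the heme ring and releases its iron, rose by more than any other member. It was at 4.50, 3.86 and 3.57 CPM in WT, at 8.81, 13.6 and 8.59 in PG9V, and at 22.8, 30.5 and 25.8 in PG9VN. The genotypes formed 3 separate steps, and the lowest PG9VN library stood above the highest PG9V library. The rise was 6.64-fold in PG9VN against WT (2.73 ± 0.21, adjusted p = 5.89e-05), 2.6-fold in PG9V against WT (1.38 ± 0.20, adjusted p = 0.0107) and 2.55-fold in PG9VN against PG9V (1.35 ± 0.20, adjusted p = 0.0121). Without WT replicate 2 or 3 the call in PG9V against WT was lost (adjusted p = 0.0676 and 0.0669, within 1.36e-07 to 0.0676 over all alternatives) at log2 fold changes of 1.36 and 1.31.

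Red blood cell genes, a source of heme in tissue that holds blood, varied among the libraries. The sum of 7 erythroid genes, mostly globins, was 15.5 to 52.0 CPM in WT, 15.8 to 67.4 in PG9V and, in PG9VN, 56.6 to 74.1, and edgeR called 0 of 5 tested members in any of the 3 comparisons. In PG9VN against WT 1 of them was higher by DESeq2 and at an unadjusted edgeR p under 0.05. The library with the highest erythroid sum also had the highest Hmox1 in WT (replicate 1) and in PG9VN (replicate 2), and had the lowest in PG9V (replicate 3, at 8.59 CPM beside 8.81 in replicate 1). The part of blood in the Hmox1 result was not tested. Of 22 tested genes of heme synthesis, transport and breakdown, 4 rose and 0 fell in PG9VN against WT, where 11.5% of all genes rose and 7.22% fell. Among the 22, 0 were called in either other comparison by edgeR or DESeq2, with 1 and 2 higher at an unadjusted p under 0.05. The heme-binding protein Hebp1 rose from 14.6 ± 2.10 to 24.8 ± 6.80 CPM (0.77 ± 0.19, adjusted p = 0.0213). The biliverdin reductase Blvrb, which acts on the product of heme oxygenase, rose from 6.32 ± 0.130 to 9.92 ± 2.87 (0.65 ± 0.19, adjusted p = 0.0443), and the transporter Mfsd7c, also named Flvcr2, from 2.22 ± 0.344 to 3.54 ± 0.299 (0.68 ± 0.18, adjusted p = 0.0316). Of 19 alternatives, 4 lost Hebp1, 12 lost Blvrb and 7 lost Mfsd7c from the calls, with adjusted p up to 0.0915, 0.172 and 0.104. Leaving out WT replicate 2 lost all 3. Blvrb held on leaving out 1 library only where that was PG9VN replicate 1, Hebp1 was also lost without WT replicate 1, and Mfsd7c without WT replicate 3, PG9V replicate 3 or PG9VN replicate 3.

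Hmox1 and the ferritin genes are known targets of the transcription factor Nrf2 (Nfe2l2). Nfe2l2 itself rose from 20.4 ± 1.73 CPM in WT to 44.3 ± 3.78 in PG9VN (1.12 ± 0.11, adjusted p = 0.000232) and was higher in PG9VN than in PG9V (28.7 ± 3.08 CPM; 0.63 ± 0.11, adjusted p = 0.0207), a call lost without PG9V replicate 1, PG9V replicate 3 or PG9VN replicate 3 (adjusted p up to 0.0986). Of 15 genes of this pathway, which do not include the members, 5 rose and 1 fell in PG9VN against WT, against the same background of 11.5% and 7.22%. The peroxiredoxin Prdx1 rose from 105 ± 2.95 to 173 ± 19.98 CPM (0.72 ± 0.11, adjusted p = 0.00247) and Osgin1 from 0.553 ± 0.0311 to 2.29 ± 0.992 (2.05 ± 0.33, adjusted p = 0.00286). The other 9 genes of the 15 were not called. The part of Nfe2l2 in the Hmox1 and ferritin results was not tested.

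**Figure D3:**
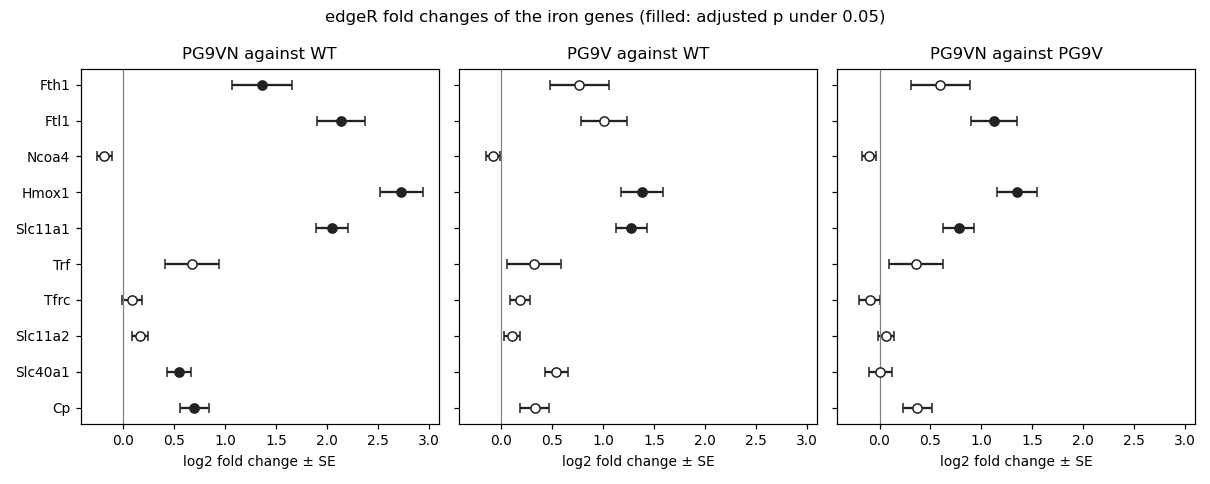
The log2 fold change (x axis) of the 10 iron genes (y axis) in the 3 comparisons, with whiskers of 1 SE from edgeR and filled points for an adjusted p under 0.05. Filled points number 6, 2 and 3 from left to right, and all of them lie above 0.

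Among the uptake genes, the phagocyte transporter rose and the general ones did not pass the test. Slc11a1, which moves divalent metals out of the phagosome and lysosome, was at 3.39, 3.18 and 2.62 CPM in WT, at 7.28, 8.36 and 6.64 in PG9V, and at 11.2, 13.8 and 13.2 in PG9VN. No library overlapped with another genotype, and the spread within each was small. Slc11a1 rose 4.15-fold in PG9VN against WT (2.05 ± 0.16, adjusted p = 5.89e-05), 2.42-fold in PG9V against WT (1.28 ± 0.16, adjusted p = 0.00488) and 1.71-fold in PG9VN against PG9V (0.78 ± 0.15, adjusted p = 0.0274).

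Microglia and macrophage markers moved with it. Of 12 markers 8 rose in PG9VN against WT, where 11.5% of all genes tested rose. In PG9V against WT 3 rose (1.62% of all genes) and in PG9VN against PG9V 4 rose (2.72%). In the 3 comparisons 0 of these markers fell. Their sum was 284 to 303 CPM in WT, 341 to 414 in PG9V and, in PG9VN, 552 to 701, with none of the 12 at or under 3 counts in every library. The sum in PG9VN was above the WT mean by 0.91 to 1.25 on the log2 scale. Markers of border macrophages summed to 8.48 to 10.4 CPM in WT and 23.7 to 33.5 in PG9VN, but of these 6 genes 1 rose (Ms4a7, log2 fold change 5.05, adjusted p = 0.000107) and 1 fell (Lyve1, -1.99, adjusted p = 0.00704), both named after their values were seen, and the median was -0.35. Ms4a7 alone was at 15.7 to 23.1 CPM in PG9VN and at most 0.67 in WT. The 4 granulocyte markers summed to at most 1.32 CPM in any library. In bulk tissue, more cells of a type and more RNA per cell cannot be told apart, and the part of the marker rise in these results was not tested.

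The related transporter Slc11a2, which carries iron across the gut wall and out of endosomes, was at 45.8 to 52.8 CPM in WT, 50.1 to 54.7 in PG9V and, in PG9VN, 52.5 to 56.8. The ranges overlapped and the test was not passed in PG9VN (0.16 ± 0.08, adjusted p = 0.181) or PG9V (0.10 ± 0.08, adjusted p = 0.608). The transferrin receptor Tfrc was at 91.2, 80.2 and 92.2 CPM in WT, at 102, 95.9 and 102 in PG9V, and at 107, 87.1 and 86.4 in PG9VN. PG9V lay just above WT and PG9VN spanned both, with log2 fold changes of 0.18 ± 0.10 (adjusted p = 0.456) and 0.09 ± 0.10 (adjusted p = 0.595) against WT. Tfrc thus gave no call in either mutant, and its sign in PG9VN turned without PG9VN replicate 1 (-0.03).

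Transferrin itself, Trf, was at 509, 356 and 385 CPM in WT, at 562, 578 and 420 in PG9V, and at 576, 962 and 466 in PG9VN. Only PG9VN replicate 2 stood clear of the rest, and WT replicate 1 lay above PG9VN replicate 3. The log2 fold change in PG9VN against WT was 0.68 ± 0.27 (adjusted p = 0.111), and 0.32 without that library (adjusted p = 0.244). DESeq2 called Trf higher in PG9VN (adjusted p = 0.0474), the lowest of 0.0474 to 0.267 over all alternatives. The summed oligodendrocyte markers were 7796 to 10400 CPM in WT, 8759 to 12050 in PG9V and, in PG9VN, 6647 to 15520, highest in PG9VN replicate 2, where Trf and Fth1 also peaked. Their lowest value was in PG9VN replicate 3, and edgeR called 0 of 11 in any comparison, with 1 lower in PG9VN against WT by DESeq2 and, in edgeR, at an unadjusted p under 0.05. Choroid plexus markers summed to 106 to 1755 CPM in WT, with WT replicate 2 the lowest, and to 774 to 1299 and 1068 to 1997 in the mutants. Neither of these was tested for its part in the Trf values.

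Both export genes rose in PG9VN. Slc40a1, or ferroportin, the cell's iron exporter, was at 9.56, 8.77 and 10.01 CPM in WT, at 13.1, 12.7 and 15.3 in PG9V, and at 15.1, 13.2 and 13.2 in PG9VN. Both mutant groups stood above WT and covered the same range. Slc40a1 rose 1.46-fold in PG9VN against WT (0.55 ± 0.12, adjusted p = 0.0116). In PG9V its log2 fold change was 0.54 ± 0.12 (adjusted p = 0.0569), with an adjusted p of 0.00507 by DESeq2 and of 0.00507 to 0.366 over all alternatives. Between the mutants it was 0.01 ± 0.12 (adjusted p = 0.986), a value whose sign turned under several alternatives.

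Cp, the ferroxidase ceruloplasmin, which oxidizes the iron that ferroportin releases, was at 23.7, 24.6 and 25.2 CPM in WT, at 31.7, 30.6 and 29.9 in PG9V, and at 40.9, 30.5 and 47.7 in PG9VN. All mutant libraries were above WT, and PG9VN replicate 2 lay among the PG9V libraries. Cp rose 1.62-fold in PG9VN against WT (0.70 ± 0.14, adjusted p = 0.00967). It was 0.33 ± 0.14 (adjusted p = 0.338) in PG9V against WT and 0.37 ± 0.14 (adjusted p = 0.224) in PG9VN against PG9V. Without PG9VN replicate 2 these became 0.31 (adjusted p = 0.0435) and 0.54 (adjusted p = 0.0102), with adjusted p of 0.0364 to 0.878 and 0.0102 to 0.515 over all alternatives. Astrocytes, which carry a membrane form of Cp, had summed markers of 4935 to 5247 CPM in WT, 6656 to 7591 in PG9V and, in PG9VN, 8144 to 9855. Of these 10 markers 6 rose in PG9VN against WT, where 11.5% of all genes rose. In PG9V against WT 4 rose (5 by DESeq2 and 2 by limma-voom), where 1.62% of all genes rose. The part of astrocytes in the Cp result was not tested.

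Counts scaled for depth and for transcript length (CPM per kilobase) allow the genes to be ranked within a genotype. Each transcript was divided by its own length before summing, so short forms weigh more. For Trf these include Trf-209, a form of 433 bases with a retained intron, at a mean of 26.8 CPM in WT and 79.8 in PG9VN. The order of Trf and Ftl1 was not examined without it. In WT the order was Fth1 (1535 ± 219), Trf (223 ± 48.4), Ftl1 (197 ± 7.34), Ncoa4 (32.0 ± 0.411), Tfrc (24.5 ± 1.48), Slc11a2 (14.5 ± 0.592), Cp (7.08 ± 0.565), Slc40a1 (3.09 ± 0.124), Hmox1 (2.61 ± 0.360) and Slc11a1 (2.49 ± 0.687), each as mean ± SD over 3 libraries. The libraries of Trf and Ftl1 overlapped, as did those of Slc40a1 with Hmox1 and of Hmox1 with Slc11a1. In PG9VN Ftl1 (868 ± 286) stood before Trf (438 ± 202), with overlap, and Hmox1 (16.9 ± 2.49) overlapped with Slc11a2 (15.9 ± 0.607). Slc40a1 (4.06 ± 0.336) was last there, below Slc11a1 (7.77 ± 0.531) with no overlap.

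At the level of transcripts 41 of the 75 rows passed the filter, and 6 rose in PG9VN against WT with 0 falling, where 2.2% of 53625 transcripts rose and 1.06% fell. These were Hmox1-201, Slc11a1-201 and 4 forms of Ftl1, and 3 were called without WT replicate 2 or WT replicate 3. In PG9V against WT 1 rose, Slc11a1-201, where 0.201% of all transcripts rose and 0.0298% fell; leaving out any library but PG9V replicate 3 lost that call. In PG9VN against PG9V edgeR called 0 of the 41, with 10 at an unadjusted p under 0.05, where 0.00373% of all transcripts rose and 0.00373% fell. Ftl1-201 held 96.3% of the Ftl1 counts in WT and 96.5% in PG9VN.

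Slc11a1-201 (ENSMUST00000027368.5), the main annotated coding form, was at 0.940, 0.930 and 1.26 CPM in WT, at 4.01, 5.92 and 3.11 in PG9V, and at 7.10, 10.4 and 7.60 in PG9VN. It rose by 3.0 ± 0.30 in PG9VN (adjusted p = 0.00217) and by 2.06 ± 0.30 in PG9V (adjusted p = 0.0438), both on the log2 scale. Its mean share of the gene's counts was 35.2% in WT, 57.4% in PG9V and 64.8% in PG9VN. The WT libraries gave 27.6%, 29.7% and 48.4%, on 98, 94 and 94 counts for the whole gene. Slc11a1-208, a form with a retained intron, held 26.3%, 13.2% and 13.6% and did not pass the test in PG9VN (1.12 ± 0.35, adjusted p = 0.137). Another coding form, Slc11a1-211, did not pass the filter, and held 8.4% in PG9V replicate 3 and 4.16% in PG9VN replicate 3. The shares of all these forms rest on few estimated counts that divide reads between similar forms, and they were not tested.

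Most Trf counts lay in 2 coding forms of the same coding length (2091 bases) that differ in their UTRs. Trf-201 (ENSMUST00000035158.15) was at 266, 174 and 193 CPM in WT, at 315, 344 and 241 in PG9V, and at 362, 747 and 296 in PG9VN. Trf-203 (ENSMUST00000112645.7) was at 204, 152 and 168 CPM in WT, at 203, 169 and 137 in PG9V, and at 139, 70.2 and 105 in PG9VN. The first form lay above WT in every PG9VN library and the second below it, and neither passed the test (1.15 ± 0.35, adjusted p = 0.127, and -0.73 ± 0.25, adjusted p = 0.172). Trf-203 took a share of the gene's counts of 40.0% to 43.6% in WT, of 28.9% to 36.1% in PG9V and of 7.02% to 24.2% in PG9VN, with no overlap among the genotypes. Trf-209, which has a retained intron, held a mean of 6.37% in WT, 8.28% in PG9V and 11.2% in PG9VN. In PG9VN replicate 2 it held 13.4%, more than Trf-203. Its level did not pass the test in PG9VN against WT (1.57 ± 0.43, adjusted p = 0.0975). These shares rest on estimated counts that divide reads between similar forms, and they were not tested.

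Tfrc-201, the coding form with the 3′ UTR elements printed above, gave 60.2, 54.9 and 64.3 CPM in the WT libraries, and the PG9VN libraries gave 68.9, 52.8 and 54.2 (-0.03 ± 0.13, adjusted p = 0.942). Tfrc-204, a form with a retained intron that holds the same 4 elements, gave 24.8, 17.7 and 20.8 CPM in the WT libraries, and the PG9VN libraries gave 32.1, 34.4 and 27.3 (0.57 ± 0.19, adjusted p = 0.15). Its libraries did not overlap, and the call was not made. For Slc11a2, the form with the element (Slc11a2-205) held 79.7% of the gene's counts in WT and 79.5% in PG9VN, and its log2 fold change (0.18 ± 0.10) was near that of the form without it (Slc11a2-201, 0.22 ± 0.17), with adjusted p of 0.405 and 0.566.

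**Figure D4:**
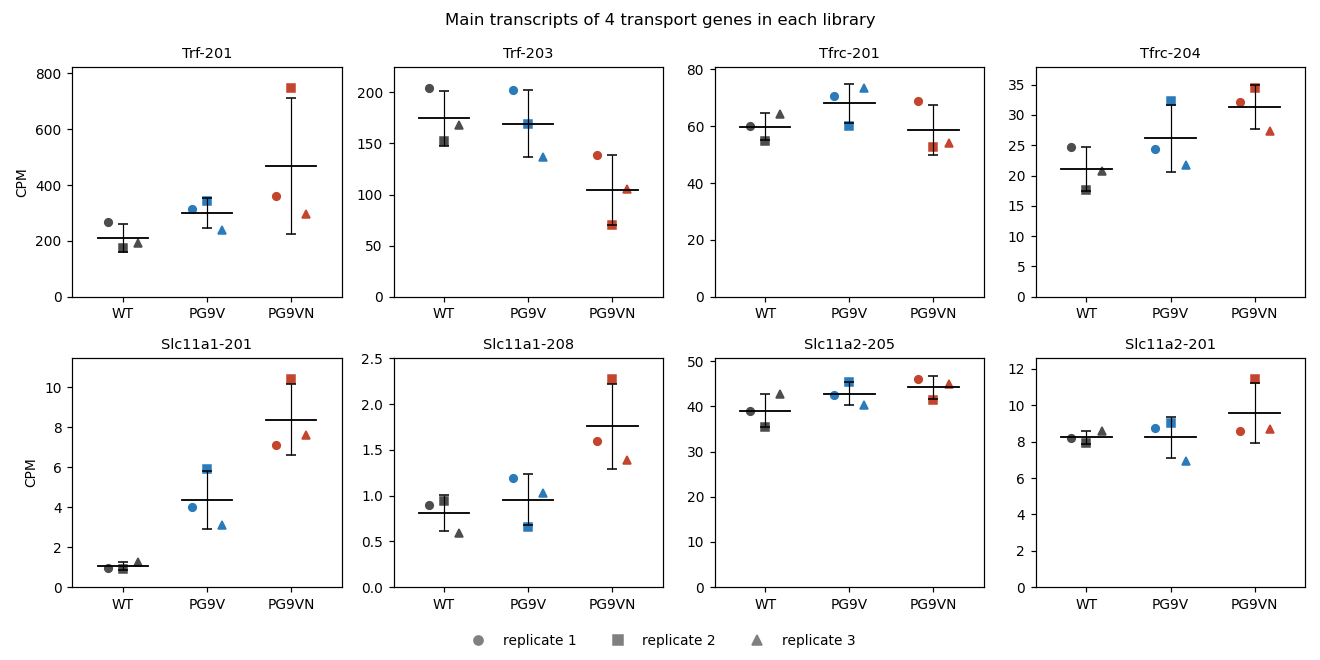
Estimated counts in CPM (y axis, from 0, scaled per panel) of the main transcripts of Trf, Tfrc, Slc11a1 and Slc11a2 in each library by genotype (x axis), with bars for the mean and whiskers for 1 SD. Trf-201 lies higher and Trf-203 lower in the 3 PG9VN libraries than in WT, while both Slc11a2 forms stay near the WT level.

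Other genes of iron handling were read in 7 lists of 106 tested genes that exclude the 10 members. In PG9VN against WT 25 rose and 7 fell, where 11.5% of all genes rose and 7.22% fell, so the share that fell was near the background. In PG9V against WT 3 rose, beside 1.62% of all genes, and in PG9VN against PG9V 4 rose, beside 2.72%, with 0 falling in either by edgeR and 2 by DESeq2 in each. The 4 dropped to 0 without PG9V replicate 1, PG9V replicate 3 or PG9VN replicate 3, and 9 rose without PG9VN replicate 2. The median log2 fold change over the 106 genes was 0.13, 0.10 and 0.02.

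Further transport genes held 7 of the rises and 1 of the falls in PG9VN against WT among 17 tested. Over all genes 11.5% rose and 7.22% fell, so the share that fell was near the background. Lcn2, a secreted protein that binds iron-loaded siderophores, had 2, 15 and 2 counts in the WT libraries, 648, 668 and 568 in PG9V, and 1880, 3062 and 1155 in PG9VN. It was called in both mutants against WT (adjusted p = 8.16e-05 in PG9VN and 0.00154 in PG9V), with too few WT counts to give a firm fold. Cybrd1, a membrane ferric reductase, rose from 4.25 ± 0.541 CPM in WT to 9.34 ± 0.284 in PG9V (1.13 ± 0.21, adjusted p = 0.0328) and 19.2 ± 6.07 in PG9VN (2.18 ± 0.22, adjusted p = 0.000224). It was also called between the mutants (1.04 ± 0.21, adjusted p = 0.0296). The Cybrd1 call in PG9V against WT was lost on leaving out any 1 of the WT or PG9V libraries (adjusted p up to 0.379 over all alternatives), and that between the mutants without WT replicate 3, PG9VN replicate 3 or any 1 PG9V library (up to 0.139). Steap4, a metalloreductase, rose from 0.499 ± 0.258 to 2.47 ± 0.758 in PG9V (2.31 ± 0.37, adjusted p = 0.0171) and 4.24 ± 0.754 in PG9VN (3.09 ± 0.37, adjusted p = 0.000654), and the PG9V call was lost without WT replicate 2, WT replicate 3 or PG9V replicate 1 (adjusted p up to 0.0961).

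Of 10 tested sensing and hepcidin genes, 1 rose in PG9VN against WT, a share near the 11.5% of all genes, and 0 fell by edgeR or DESeq2 (3 lower at an unadjusted p under 0.05). That gene was Hfe, which binds the transferrin receptor, with 6.16 ± 1.31 CPM in the WT group and 14.0 ± 1.16 in PG9VN (1.19 ± 0.18, adjusted p = 0.00224). Ireb2, an iron regulatory protein that binds iron-responsive elements, had 77.6 ± 2.70 CPM in the WT group and 64.4 ± 6.93 in PG9VN (-0.27 ± 0.10, adjusted p = 0.0933). The hepcidin gene Hamp2 was near the detection floor, at 0.309 ± 0.147 and 0.0960 ± 0.0563 CPM (adjusted p = 0.106).

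Of 16 iron-sulfur cluster genes 1 rose and 1 fell in PG9VN against WT. Over all genes 11.5% rose and 7.22% fell, so neither share was above the background. The cluster chaperone Hscb rose from 3.65 ± 0.434 to 6.78 ± 1.30 (0.89 ± 0.17, adjusted p = 0.00725). The assembly factor Isca2 did not pass the test (21.2 ± 0.309 CPM in WT, 24.0 ± 1.43 in PG9VN, adjusted p = 0.16). Of 11 tested genes linked to ferroptosis, a form of cell death driven by iron and lipid peroxides, 4 rose and 1 fell. The shares over all genes were again 11.5% and 7.22%. Sat1, a polyamine enzyme, rose from 44.5 ± 3.25 to 103 ± 20.8 CPM (1.21 ± 0.15, adjusted p = 0.000879) and Alox5, a lipoxygenase, from 0.594 ± 0.268 to 1.91 ± 0.367 (1.69 ± 0.33, adjusted p = 0.00763). Acsl4, which loads polyunsaturated fats into phospholipids, fell from 77.8 ± 1.55 to 54.4 ± 6.02 (-0.52 ± 0.10, adjusted p = 0.00725).

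**Figure D5:**
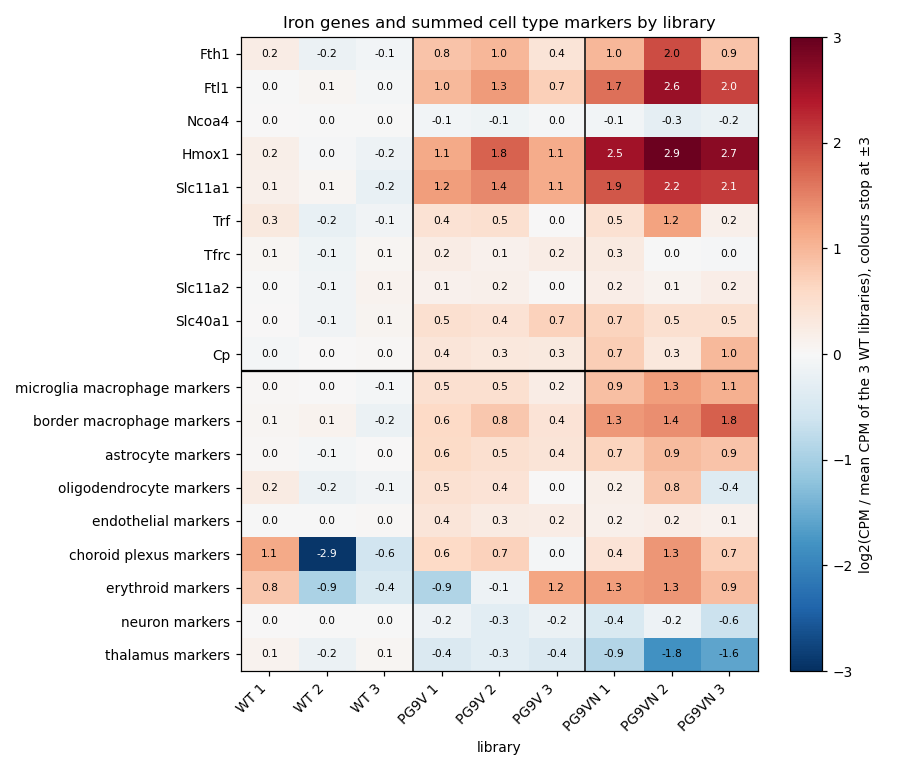
Each cell gives log2 of the CPM of a library (x axis) over the mean of the 3 WT libraries, for the iron genes and, below the line, for summed cell type markers (y axis). Hmox1, Ftl1 and Slc11a1 are red in all 6 mutant libraries, as are other rows, among them Fth1, Cp, Slc40a1 and the microglia and astrocyte sums. The oligodendrocyte and erythroid sums differ more between libraries of 1 genotype than the microglia sum does.

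The genes whose log2 CPM followed each member most closely over the 9 libraries are given as a description, since all libraries share the genotype steps. For Hmox1 they were the lysosomal proteases Ctsz (r = 0.998, and 0.961 for deviations from the genotype means) and Ctsd (0.998 and 0.969). For Ftl1 they were the lysosomal membrane protein Cd63 (0.998 and 0.978) and the phagocyte oxidase subunit Cyba (0.997 and 0.983), and for Slc11a1 the galectin Lgals3 (0.995 and 0.843) and the receptor Csf3r (0.995 and 0.849). Fth1 was closest to Commd9 (0.99 and 0.973) and Hint2 (0.989 and 0.964), and Trf to Galnt6 (0.992 and 0.986) and Pla2g7 (0.984 and 0.974). Cp was closest to Elf1 (0.988 and 0.986) and Erbb2 (0.975 and 0.922). Ncoa4 was closest to Zfp871 (0.995 and 0.985) and Ralgapa2 (0.99 and 0.972), and Slc11a2 to Thnsl2 (0.977 and 0.962) and Rhbdd1 (0.967 and 0.931). The lowest values of r were those of Tfrc with Mfsd3 (0.914 and 0.891) and Mtbp (0.895 and 0.86), and of Slc40a1. For Slc40a1 they were 0.947 with Appl2 and 0.946 with the pseudogene Rps2-ps10, and only 0.662 and 0.585 for deviations from the genotype means.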

How the data were processed

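Poly(A)-selected, stranded RNA-seq libraries were made from 9 mouse brain samples, per the labels' protocols. The values deposited by the authors are estimated counts for each transcript, divided by neither length nor depth, and 59.6% of them lay more than 0.001 from a whole number. The submitters' processing notes name kallisto 0.43.1, HISAT2 2.0.5, FastQC and Trimmomatic 0.33, and the mm39 build, without saying which of them gave the counts or which annotation was used. For 177 transcripts whose 24 symbols had turned into dates, symbols were looked up by transcript ID, and 4 stayed out. Columns were matched to mice by name and all were used.

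Counts were summed per symbol, rounded and filtered with filterByExpr, then scaled by TMM. One coefficient per genotype was fitted over all 9 libraries with edgeR 4.0.16 (quasi-likelihood, robust) in R 4.3.3, and p-values were Benjamini-Hochberg adjusted over all genes, with 0.05 as the threshold. The fit was also run on counts simulated with its own estimates of spread. Those counts held no library that stands apart as PG9VN replicate 2 does, so that run does not cover this case. Transcripts were fitted in the same way, unsummed. Alternatives used limma 3.58.1 and DESeq2 1.42.0. Levels per kilobase used GENCODE GRCm38 transcript lengths, a different build from the files'. Likeness used log2(CPM + 0.5) over genes that averaged 2 CPM or more, without predicted genes.

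The members and gene lists were chosen with earlier results of these data known. Named were all members, up to 3 genes per pathway list with the smallest p in PG9VN against WT, and the 2 genes most like each member. Each library is a separate mouse, numbered in accession order. The depth of 27151215 to 35350177 counts puts 3 counts at 0.0837 to 0.111 CPM.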

Additional observations from a re-analysis of the deposited data

How the results depend on the processing

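No paired analysis was possible because the labels carry no replicate numbers shared between the genotypes. Over 10 genes, 3 comparisons and all alternatives, 524 log2 fold changes kept their direction and side of the threshold, 26 called ones missed it, 18 others passed it and 8 changed sign. In each case the cause was not tested, apart from fewer libraries where some were left out. None of the sign changes touched a called value. They were Tfrc in PG9VN against WT without PG9VN replicate 1 (-0.0321, and up to 0.140 without another library), Slc40a1 in PG9VN against PG9V with only the 6 libraries compared (-0.006), without mitochondrially encoded genes (-0.0057), without both libraries low in Ddx3y (-0.0442) and on leaving out single libraries (-0.0615 to 0.0941), and Trf in PG9VN against PG9V without PG9VN replicate 2 and PG9V replicate 3 (-0.13), an alternative chosen after seeing the data.

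In PG9VN against WT the 6 calls stayed 5 to 6 on leaving out 1 library and became 3 without both libraries low in Ddx3y. DESeq2 gave 8, of which 1 (Ncoa4) was lower. In PG9V against WT the 2 calls ranged from 1 to 6 on leaving out 1 library, with 6 called without PG9VN replicate 2, and were 4 with DESeq2, 5 with only the 6 libraries compared, 1 without both libraries low in Ddx3y and 4 without PG9VN replicate 2 and PG9V replicate 3. In PG9VN against PG9V the 3 calls ranged from 0 to 4, and were 1 with only the 6 libraries compared and 1 without both libraries low in Ddx3y.

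Among the 106 genes of the iron pathway lists, the 25 higher and 7 lower calls in PG9VN against WT ranged from 18 to 28 and from 4 to 12 on leaving out 1 library (22 to 39 in all). They were 13 and 3 (16 in all) without both libraries low in Ddx3y, and 4 fell with only the 6 libraries compared. In PG9V against WT the 3 higher and 0 lower calls ranged from 1 to 8 and from 0 to 2 (1 to 10 in all). They were 8 and 2 (10 in all) with DESeq2 and with only the 6 libraries compared, and 10 and 3 (13 in all) without PG9VN replicate 2 and PG9V replicate 3. In PG9VN against PG9V the 4 higher and 0 lower calls ranged from 0 to 9 and from 0 to 2. They were 7 with upper quartile scaling and with library totals, 10 and 2 (12 in all) with DESeq2, 0 with only the 6 libraries compared and without both libraries low in Ddx3y, and 0 and 1 without PG9VN replicate 2 and PG9V replicate 3.

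Of the transcripts, 3 to 9 rose in PG9VN against WT (6 with all libraries) and 0 to 1 in PG9V against WT on leaving out 1 library. The ferritin ratio kept its direction in all 3 comparisons, at -0.91 to -0.63 for PG9VN against WT. Depth limits Lcn2 in WT, with 2 to 15 counts, and Hamp2, near the 0.0837 to 0.111 CPM that 3 counts make.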
